A study of Mus musculus with 2 samples.

Results

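The 35 genes described here encode the main protein folding chaperones of the mouse cell. They were chosen by symbol from a list that sorts into 15 cytosolic members, 10 of the endoplasmic reticulum, 4 of mitochondria, 5 known to be induced by stress and 1 regulator, Hsf1. All 35 were found among 43346 Ensembl gene entries, of which 21462 are nuclear protein-coding genes. Of the 35, 34 were matched by gene identifier. Hspa14 was summed from its 6 transcripts, because its deposited gene entry holds 8 transcripts and the newer annotation assigns the others to Gm45902.

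The RNA came from common myeloid progenitors, bone marrow cells whose descendants include granulocytes, monocytes, platelet-forming megakaryocytes and red cells. There were 2 libraries of 1 group, replicates 1 and 2, from male C57BL/6J mice aged 5 to 6 weeks, with an input of 100 ng and ribosomal RNA removed. The labels give both the same donor, and differences between them can therefore be technical in part. The labels name no treatment, genetic change or second group, so levels are described without a p-value.

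Chaperones bind unfolded or partly folded proteins and keep them from clumping while they fold. In the cytosol, HSP70 proteins take up new chains with the help of J proteins, HSP90 finishes many kinases and receptors, and the ring-shaped CCT complex folds actin and tubulin. The endoplasmic reticulum has its own HSP70, HSP90, lectin chaperones and disulfide isomerases for secreted and membrane proteins, and mitochondria have a further set for imported ones. A heat shock response led by Hsf1 and an unfolded protein response led by Atf6, Xbp1 and Atf4 raise these genes in stressed cells. Myeloid progenitors make large amounts of granule proteins such as myeloperoxidase, which fold in the endoplasmic reticulum.

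The promoters of the members carry letters of both responses, and they are shown first because the letters of the unfolded protein response were found in members of a single list. RefSeq promoter entries on GRCm38.p6, running from 250 bases before to 50 after a start site, were matched for 29 of the 35 members. Cct4, Hsf1, Hsp90aa1, Hsp90ab1, Hspa8 and Hspa9 had no entry. The endoplasmic reticulum stress element, searched on both strands as CCAAT and CCACG with 9 free bases between them, was found in 6 of 10 endoplasmic reticulum members and in none of the 19 other members with an entry. Of 32851 promoters in the table, 39 held it, a share of 0.119%. Members are counted by gene, and by gene the share was 0.137%, or 37 of 27025. The element contains a CCAAT box. Capitals below mark the element, and each window is written in the direction in which it reads CCAAT first.
Hspa5, chr2:34772020-34772048, plus strand: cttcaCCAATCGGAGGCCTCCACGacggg
Hsp90b1, upstream site, chr10:86705633-86705661, minus strand: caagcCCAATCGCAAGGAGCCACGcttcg
Hsp90b1, downstream site, chr10:86705528-86705556, plus strand: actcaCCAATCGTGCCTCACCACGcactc
Calr, chr8:84847070-84847098, plus strand: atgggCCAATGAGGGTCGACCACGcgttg
Canx, chr11:50325795-50325823, minus strand: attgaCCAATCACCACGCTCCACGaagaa
Pdia6, chr12:17266486-17266514, plus strand: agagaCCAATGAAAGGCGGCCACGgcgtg
Dnajc3, chr14:118937822-118937850, plus strand: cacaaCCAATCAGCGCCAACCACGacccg

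Hsp90b1, the HSP90 of the endoplasmic reticulum, was the member with the element at 2 places. The sites ended between 46 bases (Hspa5) and 193 bases (Hsp90b1) before the start. A second form of the element is ATTGG and CCACG with 1 free base between them. It was found in Dnajb11, a J protein that works with Hspa5, in 0.0365% of all promoters and in 0.0444% of genes. Its window, shown because Dnajb11 was the sole member to hold it, lies over the start site.
Dnajb11, chr16:22857843-22857871, plus strand: ccggcggcgATTGGCCCACGcctggctgc

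Pdia3, Pdia4 and P4hb, the other endoplasmic reticulum members, held neither form in this window. A plain CCAAT box was found in all 10 endoplasmic reticulum members and in 21 of the 29 members with an entry. Of all promoters 37.4% held it, and of genes 41.1%.

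Heat shock elements are repeats of GAA in alternating direction. The form with 3 units, GAA, TTC and GAA with 2 free bases after each of the first ones, was searched on both strands. It was found in Hspd1, Hspe1 and Hsph1, in 0.603% of all promoters and in 0.662% of genes. Hspd1 and Hspe1 encode the barrel and the lid of the mitochondrial chaperonin. They lie on opposite strands of chromosome 1, and the same site was found in a promoter entry of each. It lies before the Hspe1 start at 55088148 and before the Hspd1 start at 55087932. A further Hspd1 start, at 55088243, lies beyond the site, which then falls inside Hspd1. Read on the plus strand the site ended 71 bases before the Hspe1 start, and an overlapping match lies on the other strand. The shorter form GAANNTTC, which the 3-unit form contains, was found in 8 of the 29 members with an entry. Of all promoters 7.86% held it, and of genes 9.04%. The 8 members were Cct2, Dnaja1, Hspa1a, Hspa1b, Hspb1, Hspd1, Hspe1 and Hsph1, including 4 of the 5 stress-induced members. The opposite pair, TTCNNGAA, also contained in the 3-unit form, was found in Cct5, Cct6a, Hspd1, Hspe1 and Hsph1. Of all promoters 8.52% held it, and of genes 9.60%. Windows are shown for the shared site of the chaperonin pair, for Hsph1 and for the near-identical pair Hspa1a and Hspa1b.
Hspd1 and Hspe1, chr1:55088056-55088084, plus strand: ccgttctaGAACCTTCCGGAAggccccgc
Hsph1, chr5:149636280-149636308, plus strand: actgaggaGAACTTTCCAGAAtctgcagc
Hspa1a, chr17:34972243-34972270, minus strand: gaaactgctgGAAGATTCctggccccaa
Hspa1b, chr17:34959325-34959352, minus strand: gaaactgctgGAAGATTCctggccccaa

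The windows of Hspa1a and Hspa1b are the same letter for letter, and their promoters differ at 3 of 250 positions. A match of letters is a description of the sequence and does not show that a factor was bound in these cells.

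**Figure D1:**
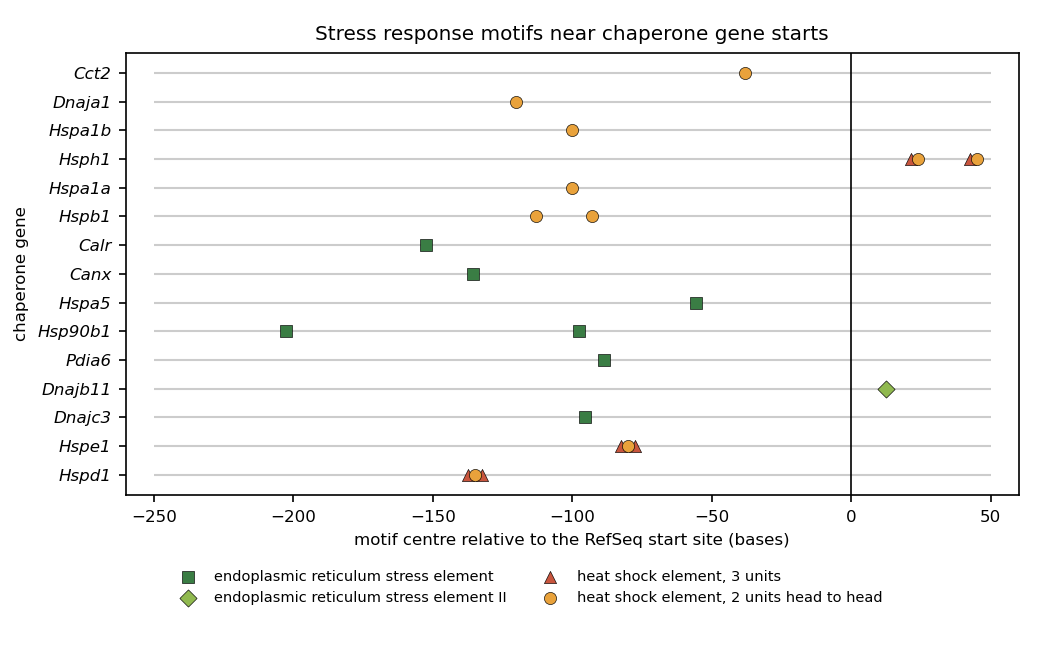
Position of each motif's centre relative to the RefSeq start site in bases, for the 15 members that hold one of the 4 motifs drawn. Squares mark the endoplasmic reticulum stress element, the diamond its second form, triangles the 3-unit heat shock element and circles its 2-unit form GAANNTTC; Hsph1 has 2 annotated starts, so its site is drawn for each. Squares lie on endoplasmic reticulum members alone, while heat shock elements lie on cytosolic, stress-induced and mitochondrial members.

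The labelled cell type was checked against marker genes before levels were read. Cd34, Kit, Mpo, Myb and Gata2, genes of myeloid progenitors, all reached 1 TPM (the deposited length-corrected share of all transcripts) in both libraries. Of nuclear protein-coding genes 42.5% did so. Mean levels of these markers ran from 11.3 to 357 TPM. The B cell markers Cd79a, Ms4a1 and Pax5 and the T and NK cell markers Cd3e, Cd8a and Ncr1 had 0 counts in both libraries. Plasma cells are rich in endoplasmic reticulum chaperones, and their markers Jchain, Sdc1 and Prdm1 summed to 1.00 and 1.27 TPM in replicates 1 and 2. Replicate 1 held 28158803 expected counts (reads per gene as estimated by the authors' quantifier) and replicate 2 held 84041137. A count of 0 allows up to 3 counts, or 0.107 and 0.0357 CPM (counts scaled to the library total), and such limits cover counting error only.

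Most chaperone genes were among the abundant mRNAs of these cells. In both libraries 34 of the 35 members reached 1 TPM, against 42.5% of nuclear protein-coding genes, and Hspb1 was the exception. A level of 100 TPM or more in both was seen for 16 members, against 1.25% of nuclear protein-coding genes. The median member stood at 82.0 and 83.2 TPM in replicates 1 and 2, while the median of nuclear protein-coding genes at 1 TPM in both libraries was 6.71 and 7.77 TPM. Together the members held 2.41% and 2.45% of nuclear protein-coding TPM, and 2.98% and 2.84% of the expected counts. In bulk RNA, fewer cells that express a gene and less of its RNA per cell cannot be told apart.

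Very few genes made up most of the chaperone RNA. Hspa8, Hsp90ab1, Hsp90aa1, Calr and Canx held 54.7% and 55.1% of all member TPM in replicates 1 and 2. These 5 genes kept ranks 1 to 5 in both libraries, and neighbours in that order did not overlap between libraries. The places of Calr and Canx changed outside gene-level TPM. In protein-coding models Calr had 182.90 and 192.52 TPM against 185.01 and 186.99 TPM for Hspa5, so Calr was lower in replicate 1. Canx had 117.33 and 120.11 TPM in those models, below Hspa5, Cct8, Hsp90b1, Tcp1 and Cct2 in both libraries. In CPM Hspa5 exceeded Canx in replicate 1 (1329 against 1255). Below the fifth place, 17 of 29 neighbouring pairs had ranges that overlapped, so places in the middle of the list are not separate levels. By list, the cytosolic members held 65.0% and 64.3% of member TPM, those of the endoplasmic reticulum 26.1% and 27.3%, the mitochondrial ones 7.67% and 7.22% and the stress-induced ones 1.13% in both.

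**Figure D2:**
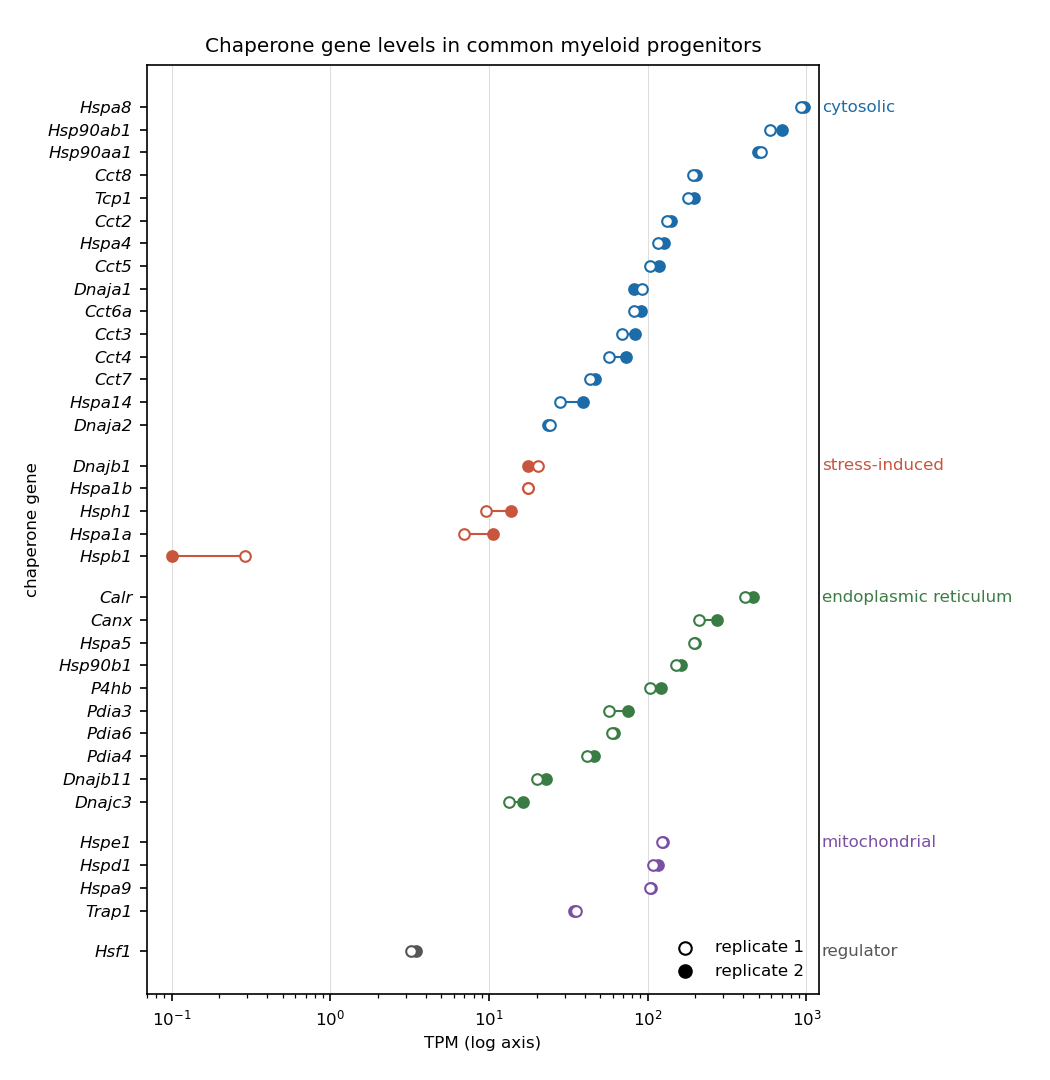
TPM of each chaperone gene on a log axis, open circles for replicate 1 and filled circles for replicate 2, with genes ordered by mean TPM within each list. Hspa8 leads at 922.18 and 965.89 TPM, the 5 stress-induced genes lie at or under 20.33 TPM, and Hspb1 is the lowest gene.

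The cytosolic HSP70 and HSP90 genes were the highest members. Hspa8 (ENSMUSG00000015656.12, chromosome 9 from 40800984 to 40810087, plus strand of GRCm38), the HSP70 made in unstressed cells, had 922.18 TPM in replicate 1 and 965.89 TPM in replicate 2, from 131331 and 351003 counts. It ranked 17 and 15 among nuclear protein-coding genes. Hsp90ab1 (ENSMUSG00000023944.10, chromosome 17 from 45567775 to 45573271, minus strand), the constitutive HSP90, had 585.20 and 704.79 TPM. Hsp90aa1 (ENSMUSG00000021270.9, chromosome 12 from 110690605 to 110702728, minus strand), the HSP90 form that stress can raise, had 516.37 and 497.14 TPM. Thus Hsp90ab1 exceeded Hsp90aa1 in both libraries, by 1.13-fold and 1.42-fold in TPM and by 1.06-fold and 1.24-fold in CPM. The coding sequences of this pair are 76.6% identical, and the deposited posterior SD of the Hsp90aa1 count was 0.047% and 0.031% of the count.

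Other cytosolic HSP70 relatives and J proteins were lower. Hspa4, a nucleotide exchange factor of the HSP110 type, had 116.21 and 127.08 TPM by gene, but most of this lay in a short model described below. Hspa14, an HSP70 that works at the ribosome, had 27.92 and 38.98 TPM. Among J proteins, which bring clients to HSP70 and start its ATP cycle, Dnaja1 had 92.55 and 82.49 TPM and Dnaja2 had 24.10 and 23.54 TPM. The Dnaja1 level was 3.84 and 3.50 times that of Dnaja2 in TPM, 1.63 and 1.86 times in CPM, and 2.52 and 2.16 times in protein-coding models. Exons of Dnaja1 overlap those of Smu1 on the opposite strand over 608 nt, and the counting strand was not given in the sources used here, so the Dnaja1 level is uncertain.

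All 8 subunits of the CCT complex were expressed, at unequal mRNA levels. The complex is built from 1 copy of each subunit per ring. Cct8 was highest in both libraries at 191.89 and 202.39 TPM, with Tcp1 at 180.07 and 195.17 TPM. Cct7 was lowest at 43.18 and 46.49 TPM. Between them lay Cct2 (133.23 and 139.90 TPM), Cct5 (104.02 and 118.02 TPM), Cct6a (82.02 and 90.80 TPM), Cct3 (69.10 and 83.23 TPM) and Cct4 (57.06 and 73.45 TPM). The highest subunit stood 4.44-fold and 4.35-fold above the lowest in TPM. This range rests partly on transcript length: in CPM it was 3.38-fold and 3.22-fold with Tcp1 highest, and in protein-coding models without Cct6a it was 3.69-fold and 3.65-fold. Cct6a is classed as a processed transcript in the newer annotation, although the gene is known to encode a subunit. Exons of Tcp1, Cct8, Cct7 and Cct6a overlap genes on the opposite strand, with the same limit as for Dnaja1. Cct6b, the testis form of Cct6a, had 0 counts in both libraries.

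Members of the endoplasmic reticulum covered a 30.8-fold range of TPM in replicate 1 and 28.0-fold in replicate 2. Calr (ENSMUSG00000003814.8, chromosome 8 from 84841850 to 84846934, minus strand), the soluble lectin chaperone of new glycoproteins, had 412.04 and 457.74 TPM. Canx, its membrane-bound partner, had 209.06 and 274.78 TPM. Calr was higher than Canx in both libraries, by 1.97-fold and 1.67-fold in TPM, but by 1.13-fold in both in CPM. Hspa5 (ENSMUSG00000026864.9, chromosome 2 from 34771970 to 34777547, plus strand), the HSP70 of the compartment also called BiP, had 194.51 and 197.84 TPM. Hsp90b1 had 150.96 and 162.54 TPM. Hspa8 in the cytosol stood 4.74-fold and 4.88-fold above Hspa5.

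Disulfide isomerases, which form and rearrange disulfide bonds, were lower than the lectin chaperones in gene-level TPM. In protein-coding models P4hb, at 103.41 and 121.44 TPM, overlapped Canx, at 117.33 and 120.11 TPM. P4hb, the classical isomerase, had 103.41 and 121.44 TPM and led this family in both libraries. Pdia3, which works with Calr and Canx on glycoproteins, had 56.71 and 74.61 TPM. Pdia6 had 59.30 and 61.66 TPM and Pdia4 had 41.42 and 45.86 TPM, so Pdia3 and Pdia6 overlapped while Pdia4 lay below both. The J proteins of the compartment were the lowest of its members: Dnajb11 had 20.01 and 22.84 TPM, and Dnajc3, also known as an inhibitor of the kinase Eif2ak3, had 13.38 and 16.37 TPM. Genes with the endoplasmic reticulum stress element ranged from 14.9 ± 2.11 TPM (Dnajc3) to 435 ± 32.3 TPM (Calr; mean ± SD, n = 2). The 4 without that form ranged from 21.4 ± 2.00 TPM (Dnajb11) to 112 ± 12.7 TPM (P4hb), so levels of the sets overlapped.

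Mitochondrial members differed least among themselves, by 3.49-fold and 3.61-fold from lowest to highest. The list has 4 genes, against 5 stress-induced, 10 endoplasmic reticulum and 15 cytosolic ones, and such a range can widen with the number of genes. Hspe1 (ENSMUSG00000073676.4, chromosome 1 from 55088132 to 55091307, plus strand) had 123.46 and 124.04 TPM. Hspd1 (ENSMUSG00000025980.10, chromosome 1 from 55077835 to 55088243, minus strand) had 108.40 and 116.30 TPM. Hspe1 therefore stood at 1.14 and 1.07 times the level of Hspd1, its partner on the opposite strand. In protein-coding models the ratio was 1.06 and 0.983, so their order changed in replicate 2. In CPM, without length correction, Hspe1 was at 0.295 and 0.287 of Hspd1, and its effective length was 572 nt in replicate 1 against 2205 nt for Hspd1. Exons of the pair overlap over 112 nt.

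Hspa9, the mitochondrial HSP70, had 103.83 and 105.59 TPM, and Trap1, the mitochondrial HSP90, had 35.34 and 34.36 TPM. The HSP70 of the endoplasmic reticulum, Hspa5, was 1.87 times Hspa9 in both libraries. Hsp90b1 was 4.27 and 4.73 times Trap1. A processed pseudogene of Hspd1 on chromosome 11, Hspd1-ps3, is 98.95% identical to its coding sequence and was assigned 1833 and 4500 counts, so part of the Hspd1 count may be divided. Of 12 annotated member pseudogenes it was the sole one with at least 10 counts.

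The stress-induced median was lower than those of the other chaperone lists, although single genes overlapped the low end of the endoplasmic reticulum list. Dnajb1, the J protein partner of inducible HSP70, had 20.33 and 17.69 TPM. Hspa1b had 17.60 and 17.62 TPM and Hspa1a had 6.98 and 10.53 TPM. Hsph1, an HSP110 exchange factor, had 9.53 and 13.76 TPM. Hspb1, a small heat shock protein that holds unfolded clients without ATP, was near the limit of detection at 0.29 and 0.10 TPM, from 16 and 14 counts. Its level was 0.568 CPM (95% Poisson interval 0.325 to 0.923) in replicate 1 and 0.167 CPM (0.0911 to 0.280) in replicate 2, where the intervals cover counting error only. Hspa8 exceeded the sum of Hspa1a and Hspa1b 37.5-fold and 34.3-fold.

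Hspa1a and Hspa1b are nearly identical in coding sequence; their untranslated parts were not compared. Hspa1a (ENSMUSG00000091971.3, chromosome 17 from 34969190 to 34972156) and Hspa1b (ENSMUSG00000090877.3, chromosome 17 from 34956436 to 34959238) lie on the minus strand, 9951 bp apart. Of 1926 aligned coding positions 8 differ, and the longest identical run is 638 bases. The windows below, coding positions 1317 to 1416, show a stretch that can tell them apart, with the 2 differing bases in capitals.
Hspa1a, chr17:34970510-34970609, minus strand: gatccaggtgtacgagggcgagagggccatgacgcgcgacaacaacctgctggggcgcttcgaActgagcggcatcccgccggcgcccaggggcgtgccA
Hspa1b, chr17:34957592-34957691, minus strand: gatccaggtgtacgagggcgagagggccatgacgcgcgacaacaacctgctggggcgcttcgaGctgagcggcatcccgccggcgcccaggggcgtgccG

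Their counts were not whole numbers, 1463.86 and 3472.31 in replicate 1 and 5668.17 and 8926.83 in replicate 2, so reads were divided between them. The deposited posterior SD was largest for Hspa1a among members, at 2.05% of its count in replicate 1. Hspa1b stood at 2.52 and 1.67 times Hspa1a in TPM. Summed, the pair had 24.58 and 28.15 TPM, or 175 and 174 CPM.

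Genes that cell handling can raise were present at the same time. All 9 immediate early genes of a fixed list reached 1 TPM in both libraries, against 42.5% of nuclear protein-coding genes. Their summed level was 226 and 290 TPM. Fos was highest at 87.76 and 109.40 TPM, followed by Jun at 60.95 and 84.52 TPM and Junb at 16.92 and 22.39 TPM. Their part in the levels of the stress-induced chaperones was not tested.

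Between lists, the stress-induced median was the one that stood clearly apart. Cytosolic members had a median of 104 and 118 TPM, mitochondrial members 106 and 111 TPM, endoplasmic reticulum members 81.4 and 98.0 TPM and stress-induced members 9.53 and 13.8 TPM. On the log2 scale, the stress-induced median differed from the cytosolic one by -3.27 ± 0.25 (SD, n = 2), and in TPM every stress-induced gene lay below every cytosolic gene in both libraries. In CPM the single genes overlapped: Hspa1b (123 CPM) and Dnajb1 (113 CPM) exceeded Hspa14 (107 CPM) in replicate 1. For the endoplasmic reticulum median the difference was -0.31 ± 0.061, and for the mitochondrial median -0.030 ± 0.083. The first of these changed sign in CPM, where the medians were 502 and 535 CPM for the endoplasmic reticulum and 455 and 431 CPM for the cytosol. The second had opposite signs in the 2 libraries. Order among these 3 lists therefore depends on the scale, while the stress-induced median was the lowest of the 4 lists in TPM and in CPM.

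Hsf1, the transcription factor of the heat shock response, had 3.24 and 3.48 TPM, lower than every member but Hspb1. Hsf2 had 2.68 and 2.98 TPM, while Hsf4 had 0 counts in both libraries and Hsf5 had 8 and 0 counts. Of the regulators of the unfolded protein response, 8 of 8 reached 1 TPM in both libraries, against 42.5% of nuclear protein-coding genes. Their median was 6.50 and 10.49 TPM. Atf4, the activator made when translation is slowed, was highest at 74.05 and 80.87 TPM. Ppp1r15a, which restores translation, had 25.37 and 42.84 TPM, and Xbp1, whose mRNA is spliced by the sensor Ern1, had 12.18 and 15.98 TPM. The lowest were Eif2ak3, Atf6b and Atf6, a kinase sensor and a pair of membrane-bound factors, at 3.18, 4.86 and 5.24 TPM on average. A gene total of Xbp1 does not separate its spliced from its unspliced mRNA.

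Short models annotated as non-coding held a large share of TPM for some members. In TPM a read counts for more in a short model, so such a model can hold more of the TPM than of the reads. Protein-coding models held at least 90% of TPM in both libraries for 21 of the 34 members with a coding class. They held less than 70% in at least 1 library for 5 members, Hspa4, Calr, Canx, Dnaja1 and Hsp90aa1. Their share of counts was 68.4% and 66.1% for Calr and 67.9% and 69.8% for Dnaja1. It was higher for Hspa4, Canx and Hsp90aa1.

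Hspa4 was the extreme case. Its retained intron model Hspa4-202, 630 nt long, had 80.62 and 85.09 TPM, while the coding model Hspa4-201 of 4618 nt had 33.96 and 40.59 TPM. The coding model held 29.2% and 31.9% of TPM but 79.7% and 81.6% of the counts. Calr had 224.99 and 257.33 TPM in the retained intron model Calr-204 of 943 nt and 182.90 and 192.52 TPM in the coding model Calr-201. The coding model of Canx, Canx-201, was nearly equal in the libraries at 115.94 and 115.77 TPM, whereas its 708 nt processed transcript Canx-202 had 91.68 and 153.83 TPM. The spread of the Canx gene level between libraries thus lay in the short model.

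Other members changed less. Hsp90aa1 had 158.34 and 131.39 TPM in a retained intron model of 487 nt, and coding models held 68.7% and 72.7% of its TPM. Cct8 owed its first place among CCT subunits to a 716 nt coding model, Cct8-202, with 119.32 and 121.75 TPM, while its 2394 nt model had 37.07 and 38.80 TPM. Counted in protein-coding models alone, Hspa4 fell from 122 to 37.3 TPM on average, Calr from 435 to 188 TPM, Canx from 242 to 119 TPM and Dnaja1 from 87.5 to 55.8 TPM. Whether reads in the retained intron models come from processed or unprocessed RNA was not tested.

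**Figure D3:**
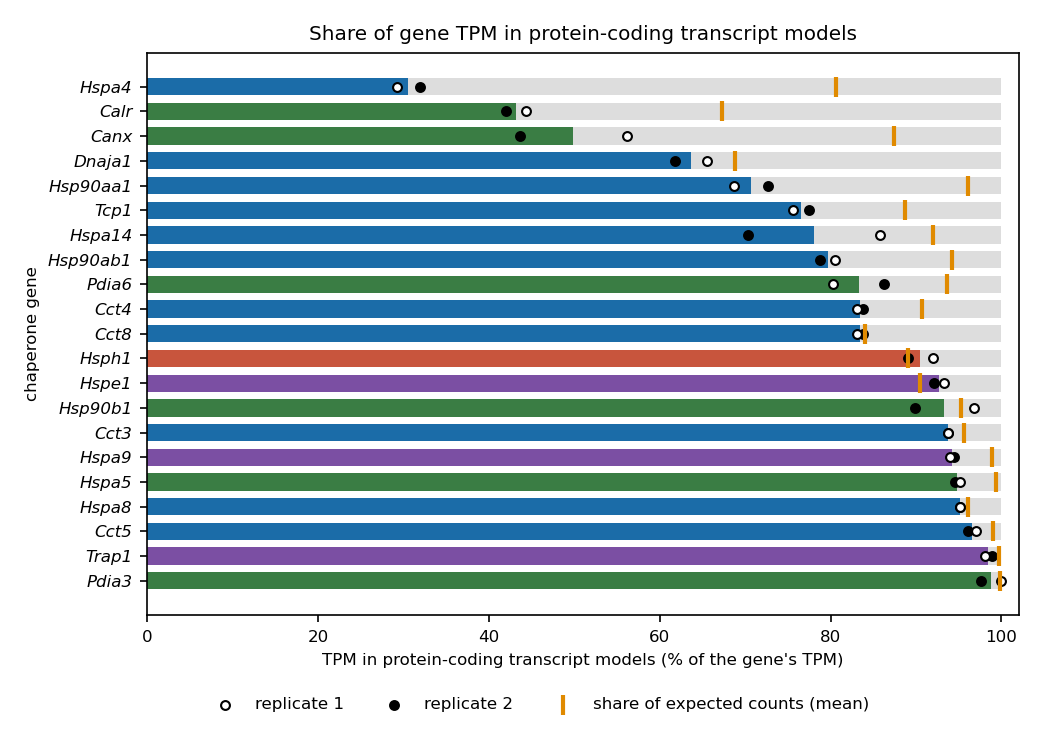
Percent of each gene's TPM in protein-coding transcript models (coloured bars, mean of both libraries; grey, other models) for the 21 members with the lowest share, with open and filled circles for replicates 1 and 2. Orange ticks give the same share in expected counts: for Hspa4 the share of TPM is 29.2% and 31.9%, while the share of counts is 79.7% and 81.6%.

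Lists of partner genes had lower medians than the chaperone list of the same compartment. The stress-induced chaperones, with a median of 9.53 and 13.8 TPM, lay below the median of the cytosolic cochaperones. All 16 cytosolic cochaperones reached 1 TPM in both libraries, against 42.5% of nuclear protein-coding genes. Their median was 25.2 and 38.9 TPM. St13, which binds HSP70, led at 79.60 and 102.29 TPM, followed by Fkbp4, a prolyl isomerase of HSP90 complexes, at 68.74 and 85.16 TPM and Bag1, an HSP70 exchange factor, at 77.99 and 73.97 TPM. Bag3, an exchange factor known to be raised by heat shock, was lowest at 1.02 and 1.15 TPM, and the HSP70 regulator Hspbp1 had 4.36 and 5.68 TPM. All 6 subunits of prefoldin, which hands new actin and tubulin to CCT, were found, from Pfdn2 at 13.54 and 8.18 TPM to Pfdn5 at 59.90 and 48.57 TPM.

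Mitochondrial partners reached 1 TPM in both libraries in 9 of 9 cases, against 42.5% of nuclear protein-coding genes. Their median was 10.6 and 11.9 TPM, below the lowest mitochondrial chaperone, Trap1. Hscb, a J protein of iron-sulfur cluster assembly, and Clpp, a protease subunit, were highest at 14.7 and 14.3 TPM on average, and Grpel2, an exchange factor of Hspa9, was lowest at 4.44 TPM. Of 20 endoplasmic reticulum partners 19 reached 1 TPM in both libraries, against the same 42.5%. Their median was 13.9 and 14.8 TPM. Erp29, a relative of the isomerases, had 154.43 and 159.57 TPM and Ppib, a prolyl isomerase, had 106.88 and 122.56 TPM, both within the range of the chaperones. Manf, a secreted protein of the unfolded protein response, followed at 52.39 and 35.40 TPM. Pdia5 and the oxidases Ero1lb and Ero1l were lowest, with Pdia5 at 0.86 and 1.42 TPM, Ero1lb at 1.52 and 1.92 TPM and Ero1l at 4.04 and 6.00 TPM.

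Chaperone paralogs known from other tissues were mostly low. Of 22 such genes, 2 reached 1 TPM in both libraries, against 42.5% of nuclear protein-coding genes. The number with 0 counts in both was 10 of 22, near the 38.3% of nuclear protein-coding genes with none. The 10 were Cct6b, Hspa12a, Pdilt, Hspb2, Hspb3, Hspb7, Hspb8, Cryaa, Dnajb8 and Dnajb13. Hspa4l, an HSP110 relative, had 19.71 and 10.38 TPM, and Hspa2, an HSP70 best known from testis, had 2.82 and 2.62 TPM. The remaining 10 did not reach 1 TPM in both libraries, among them the lectin chaperones Calr3 (0.40 and 0.77 TPM) and Clgn (0.25 and 0.05 TPM), the lens and muscle gene Cryab (0 and 0.06 TPM) and Hspa1l, next to Hspa1a (0.13 and 0 TPM).

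**Figure D4:**
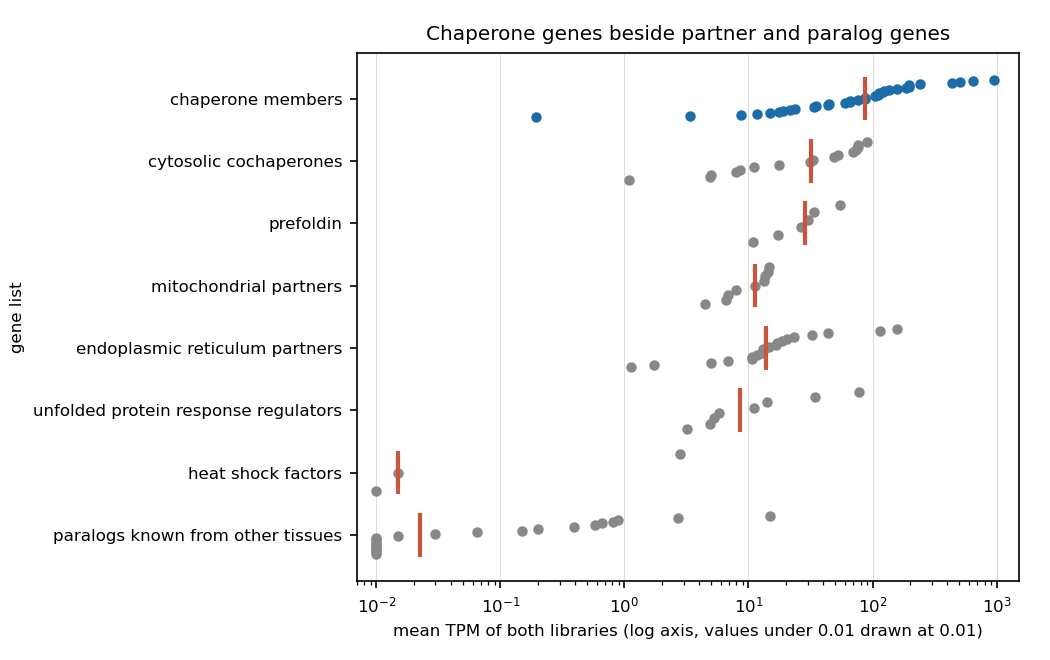
Mean TPM of both libraries on a log axis for each gene of the chaperone list (blue) and of 7 related lists (grey), with a red bar at the median gene of each list. Values under 0.01 TPM are drawn at 0.01; the chaperones have the highest median, and 10 of the 22 paralogs from other tissues have 0 counts in both libraries.

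Between the libraries the members varied little. In CPM scaled by TMM, 1 of 35 members differed at least 2-fold, against 14.8% of nuclear protein-coding genes with a mean of at least 10 counts. It was lower in replicate 2, as were 5.26% of those genes, and no member was 2-fold higher, as were 9.51% of them. This member was Hspb1, with a log2 ratio of replicate 2 over replicate 1 of -1.71 on 16 and 14 counts. Within 1.25-fold of each other lay 32 members, against 57.8% of those genes. Much of this goes with abundance: among nuclear protein-coding genes at 10 TPM or more in both libraries, 85.5% lay within 1.25-fold and 0.28% were 2-fold apart, and of the 31 members at that level 30 and 0 did.

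The 3 members outside 1.25-fold were Hspb1, Dnajb1 and Hspa1a, named after their values were seen. All 3 belong to the 5 stress-induced genes, while 0 of the 30 other members lay outside. The stress-induced median was also below the cytosolic, endoplasmic reticulum and mitochondrial medians. Of the 3, Dnajb1 alone reached 10 TPM in both libraries, and Hspb1 rests on 16 and 14 counts. Stress-induced genes did not move together: the log2 ratio was -0.41 for Dnajb1, 0.38 for Hspa1a, 0.30 for Hsph1 and -0.21 for Hspa1b. The sum of Hspa1a and Hspa1b had a log2 ratio of -0.010. The opposite values of that pair thus cancelled in their sum. Reads were divided between the pair, and the part of this division in their ratios was not tested.

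A lean of the members to one library depended on the unit. In CPM 24 members were lower in replicate 2 and 11 higher. Of the 12444 nuclear protein-coding genes with a mean of at least 10 counts, 5891 were lower and 6553 higher. The median log2 ratio was -0.088 for members, against 0.023 for all those genes. In TPM 29 members were higher and 6 lower, with a median log2 ratio of 0.11, but the median of all those genes was then 0.23. How many of those genes were higher in TPM was not counted. Relative to other genes, the members' median was thus lower in replicate 2 by about the same amount in both units. All 4 mitochondrial members were lower in replicate 2 in CPM, as were 5891 of the 12444 genes. The mitochondrial median log2 ratio was -0.18, while 3 of the 4 members were higher in TPM. The size range stated in the labels, without a unit, also differed: it ran from 200 to 1000 in replicate 1 and from 187 to 1606 in replicate 2. Its part in these ratios was not tested.

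**Figure D5:**
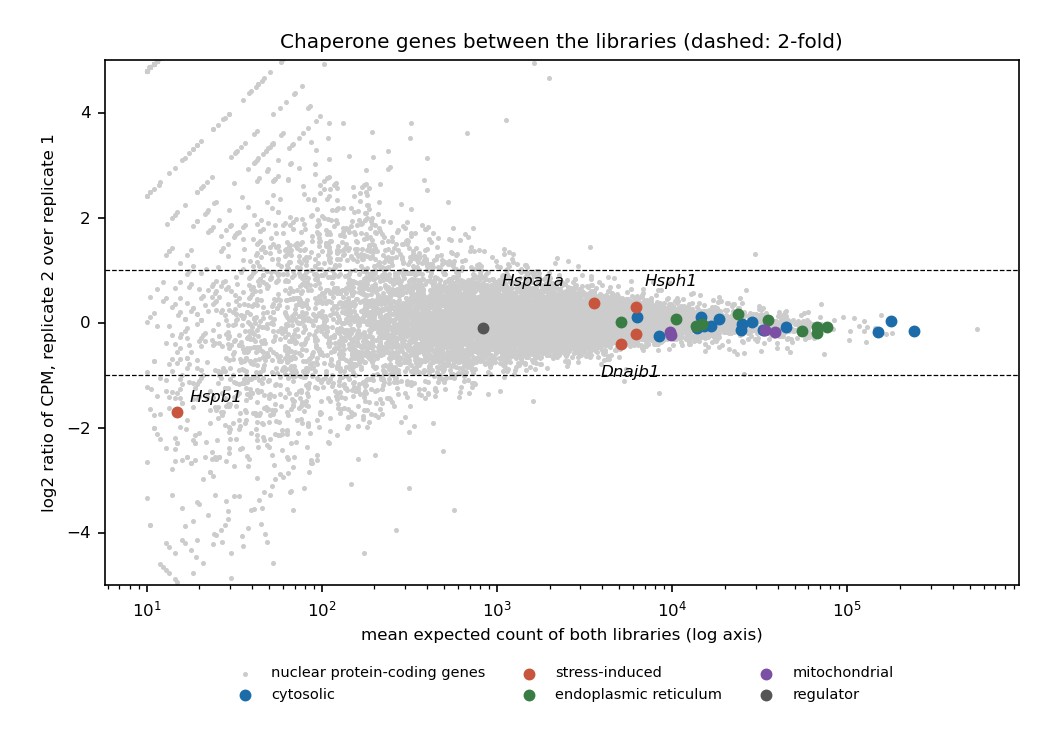
Log2 ratio of CPM, replicate 2 over replicate 1, against the mean expected count on a log axis, for 12444 nuclear protein-coding genes (grey) and the chaperone members (coloured by list); 626 grey genes lie outside the plotted range of -5 to 5. Dashed lines mark 2-fold; Hspb1, at 16 and 14 counts, is the single member beyond them.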

How the data were processed

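For every library the authors deposited gene-level and transcript-level tables, made on mm10 with the GENCODE M4 annotation per the readmes. The aligner, the quantifier and the counting strand are not given in the sources used here. In the deposited tables, expected counts are estimated reads per entry. TPM and FPKM, as deposited by the authors, are corrected for effective length and relative to all entries, short structural RNAs included: nuclear protein-coding genes summed to 200948 and 215244 TPM in replicates 1 and 2. GENCODE M21 on GRCm38 supplied gene names, classes and positions for 42462 gene entries.

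The members and lists were chosen with earlier results of these data known. The text may name all members, the 3 genes of highest and the 3 of lowest mean TPM in other lists, every paralog from other tissues, every label marker, and pseudogenes of at least 10 counts. For 1 cytosolic cochaperone the level is not reported here. A list's level is its median TPM per library. Ratios between libraries used expected counts rounded to whole numbers, TMM in edgeR 4.0.16 and a prior count of 0.5, for genes with a mean of at least 10 counts; DESeq2 1.42.0 size factors were an alternative. The ratio step was tested on simulated data with large changes and counting error only, which cannot show how small ratios between libraries behave. R 4.3.3, Python 3.11.15, pandas 2.3.3, numpy 2.4.6 and matplotlib 3.10.9 were used. Alternatives were other units, list changes, thresholds and each library left out.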

Additional observations from a re-analysis of the deposited data

How the results depend on the processing

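The stress-induced median lay below the cytosolic one under every alternative run, at a log2 difference of -2.31 in CPM, -2.80 with Hsp90aa1 moved to the stress-induced list, -2.85 with Hspa1a and Hspa1b summed and -3.84 as a mean of log2(TPM + 1), and between -3.45 and -3.10 with either library left out. The endoplasmic reticulum difference reversed to 0.23 in CPM. It was -0.18 with Hsp90aa1 moved, -0.038 with Hsph1 and Dnajb1 moved to the cytosolic list, -0.44 without CCT subunits and -0.54 as a mean of logs. With protein-coding models alone it was -0.019 and without Hspa14 -0.38, both alternatives chosen after seeing the data. With either library left out it lay between -0.35 and -0.27. The mitochondrial difference lay between -0.089 and 0.029 with either library left out, so it reversed, as it did to 0.24 in protein-coding models. It was -0.15 in CPM, -0.16 without CCT subunits and -0.56 as a mean of logs. The median log2 ratio of members between libraries reversed to 0.11 in TPM and 0.12 in posterior mean TPM. The members' share of nuclear protein-coding reads was 2.91% in expected counts. The range of CCT subunits was 3.30-fold in CPM and 3.67-fold in protein-coding models. Counts of members at 1 TPM and at 2-fold stayed within 1.5 times under the alternatives run. Posterior mean TPM moved no member over 1.13-fold, while protein-coding models moved 4 of 34 over 1.5-fold. No paired analysis was possible because there was 1 group. With 2 libraries, the spread of each value is itself poorly known, and Hspb1 rests on 16 and 14 counts.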
